A study of Mus musculus with 8 samples.

Results

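OT-I CD8 T cells that had passed through activation and a transduction step without taking up a detectable vector were described from the 4 GFP-negative libraries of a series of 8. The libraries were chosen by their labels: 2 were sorted from cultures given a vector for full-length TOX (TOXFL) and 2 from cultures given a vector for TOXdeltaN, the other protein made from the Tox gene. All 31815 gene rows were used, without the ERCC spike-in rows. The other 4 libraries held GFP-positive cells of the same 2 kinds of culture, with 2 libraries each.

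All 4 groups shared their genotype and culture. The mice were OTI, C57BL/6-Tg(TcraTcrb)1100Mjb/J, in which a transgene gives T cells a receptor that recognizes a peptide of ovalbumin (OVA). CD3+CD8+ splenocytes described as naive were kept with OVA peptide for 3 days, were given a vector carrying IRES-GFP 24 h after the culture began, and were sorted by flow cytometry on day 5. The TOXFL-negative and TOXdeltaN-negative groups were the GFP- cells of each culture. The TOXFL-positive and TOXdeltaN-positive groups were the top 20% of GFP+ cells. GFP-negative cells therefore shared their culture with cells that made exogenous TOX, and cells from a culture with no vector, with GFP alone or without peptide were not analysed here. A high level below is a level among the genes of a library, not a rise from the resting state. Age and sex are not among the labels. Nor do the labels tell whether replicates are different mice or different cultures, so a p-value here speaks for the spread among these libraries alone, part of which may be technical.

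A CD8 T cell that meets its antigen enlarges, takes up nutrients, turns to glycolysis and divides, and then makes the granule proteins and cytokines with which it kills infected cells. TOX binds DNA through an HMG box and is known for its part in T cell exhaustion and in the development of T cells in the thymus. In the lymph node and spleen, genes such as Ccr7, S1pr1, Klf2 and Tcf7 mark cells that are naive or retain memory potential, while Gzmb, Prf1, Klrg1, Zeb2 and Prdm1 mark effector cells.

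The GFP-negative libraries held 26748159 to 29883258 counts, and 16727 to 16943 genes had a count in a library. A gene with 0 counts in a library could be present at up to 0.1 to 0.112 CPM (counts scaled to 1e6 per library), the level of 3 counts, which covers counting error only. The libraries of a group were not copies of each other: their counts differed beyond sampling noise, and chi-square divided by its degrees of freedom was 11.9 in either GFP-negative group. Tox, the gene carried by the vectors (chromosome 4, positions 6686353 to 6991557, minus strand, GRCm38), had 25.1 CPM in TOXFL-negative replicate 1 and 34.4 in replicate 2, and 21.8 and 32.2 CPM in TOXdeltaN-negative replicates 1 and 2. The GFP-positive libraries had 105 and 126 CPM with TOXFL and 107 and 82.9 CPM with TOXdeltaN. All 4 GFP-negative libraries lay below all 4 GFP-positive libraries, in the order of the labels, and the counts do not separate the cells' own Tox mRNA from that of the vector. Xist was at 18.7 to 28.7 TPM (a level per length, defined below), and 4 Y-linked genes summed to 5 to 17 counts per library.

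Levels of different genes are compared as TPM, computed here as counts per kilobase of merged exon scaled to 1e6 per library. Of the genes, 11038 reached 1 TPM in all 4 libraries, 8036 reached 10, 1977 reached 100 and 106 reached 1000. The 20 most abundant genes took 10.4% to 10.8% of TPM, and 611 genes together made up 50%. The most abundant messages were those of the cytoskeleton: thymosin beta 4 (Tmsb4x) ranked first with 12410 ± 121 TPM and beta-actin (Actb) second with 11750 ± 514 TPM (SD, n = 4 libraries, as for the levels that follow). Actg1, Tuba1b, Pfn1 and Coro1a, which encode gamma-actin, an alpha-tubulin, profilin and coronin, were also among the first 20. B2m, the light chain of MHC class I, had rank 5 at 6912 ± 421 TPM and H2-D1, a class I heavy chain, rank 10 at 4275 ± 209 TPM.

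The histone gene Hist1h2ap had rank 3 at 8201 ± 322 TPM, although histone genes have near-identical copies and the share of each is uncertain. Among the first 20 were 5 mitochondrially encoded genes, led by mt-Co3 at 7382 ± 260 TPM, together with the elongation factor Eef1a1, the ubiquitin gene Ubb, Ppia, Ptma and Rpl32. The 13 mitochondrially encoded genes took 3.18% to 3.45% of TPM and the 80 cytosolic ribosomal protein genes 6.72% to 7.21%. The only gene of the first 20 known chiefly for killing was Nkg7, a granule membrane protein, at rank 13 with 3685, 3485, 3657 and 3574 TPM. Throughout, 4 values in a row are TOXFL-negative replicates 1 and 2 and then TOXdeltaN-negative replicates 1 and 2. The 4 values of Nkg7 lay close together (SD 90.3 TPM), but its place depends on the length used: by counts alone it had rank 80. The same holds for other short genes. By counts alone Hist1h2ap had rank 57, mt-Co1 12, mt-Co3 23, mt-Atp6 56, mt-Co2 123 and mt-Atp8 1148.

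Lists of T cell genes were read against these levels, a gene being on at 10 TPM or more in all 4 libraries, off under 1 TPM in all 4, and low otherwise. Of 340 genes of 20 lists, 262 were on and 38 were off. Every measured gene of the T cell receptor and CD8 list, of the mitosis list and of the DNA replication list was on. Of the genes that were off, 8 belonged to the cytokine list, 6 to the list of killing genes and 5 to the list of chemokine receptors and adhesion molecules.

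**Figure D1:**
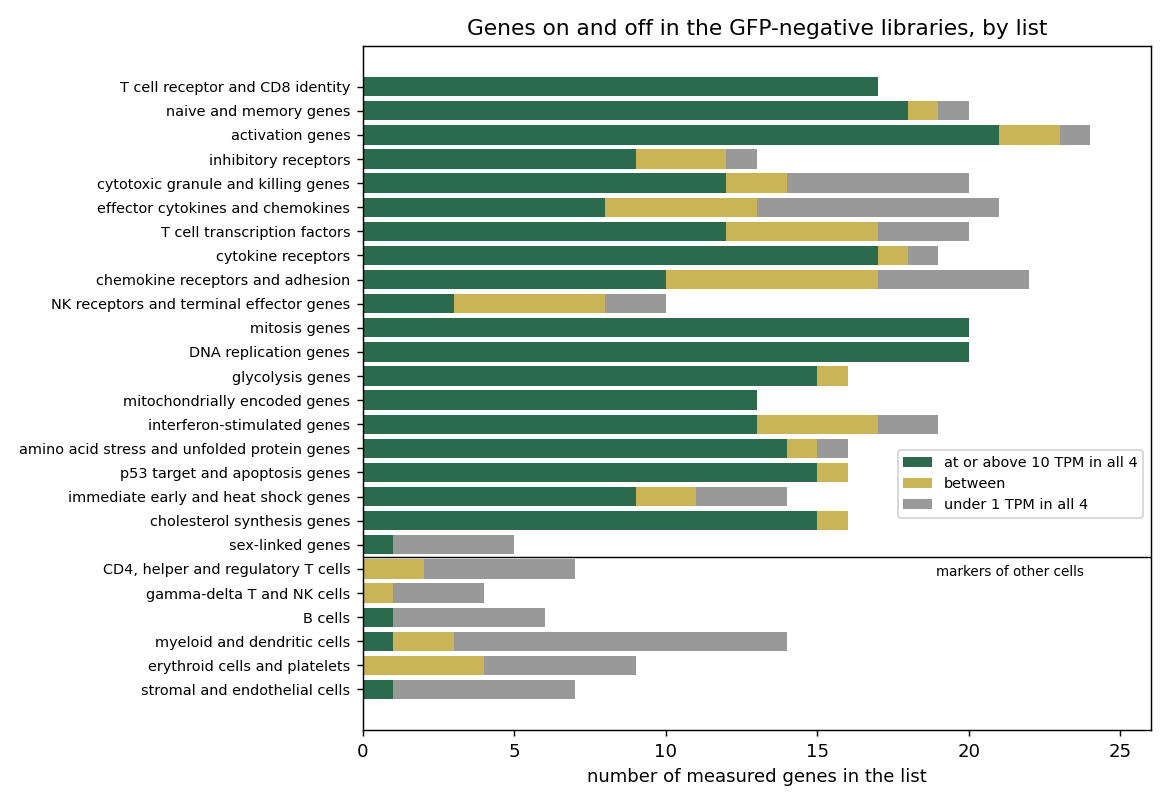
Number of measured genes per list (horizontal axis) that were at or above 10 TPM in all 4 GFP-negative libraries (green), under 1 TPM in all 4 (grey) or between (yellow), for 20 lists of cell state genes and, under the line, 6 lists of markers of other cells. All 20 mitosis genes and all 20 DNA replication genes were on, while 8 of 21 cytokine and chemokine genes were off and 3 of 47 markers of other cells were on.

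The libraries were those of CD8 T cells by their defining genes. All 17 measured genes of the receptor and CD8 list were on. Cd8b1 stood at 1720, 1521, 1765 and 1473 TPM, Lck, the kinase bound to CD8, at 1477, 1385, 1474 and 1328, and Cd3e, a chain of the receptor complex, at 656, 656, 647 and 646. Cd4 was at 0.7, 0.03, 0.987 and 0 TPM. The lowest member was the costimulatory receptor Cd28 at 92, 113, 90.7 and 114 TPM, and both replicate 2 libraries lay above both replicate 1 libraries for it.

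Markers of other cells were low. None of 7 CD4, helper and regulatory T cell markers was on, and Foxp3 reached 2.29 TPM at most. None of 4 NK cell markers and none of 9 erythroid and platelet markers was on. The gamma-delta T cell markers that were listed are not rows of the table, so gamma-delta T cells were not examined. The haemoglobin gene Hba-a2 was at 5, 0, 1.7 and 1.67 TPM. Of 6 B cell markers, Cd79b was on, at 38.3 to 39.4 TPM, while Ms4a1 reached 0.0415 TPM at most and Pax5 had 0 counts. Of 14 myeloid and dendritic markers, Cd74, the invariant chain of MHC class II, was on at 10.1, 23.6, 13.6 and 32.2 TPM, while Adgre1, Clec9a, S100a8 and S100a9 had 0 counts in all 4. Pecam1 was the only stromal and endothelial marker on, at 69.7 to 77.6 TPM, with Col3a1 at 0 and Cdh5 at 0.183 TPM at most. In such bulk libraries, fewer cells of a type and less RNA per cell cannot be told apart.

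**Figure D2:**
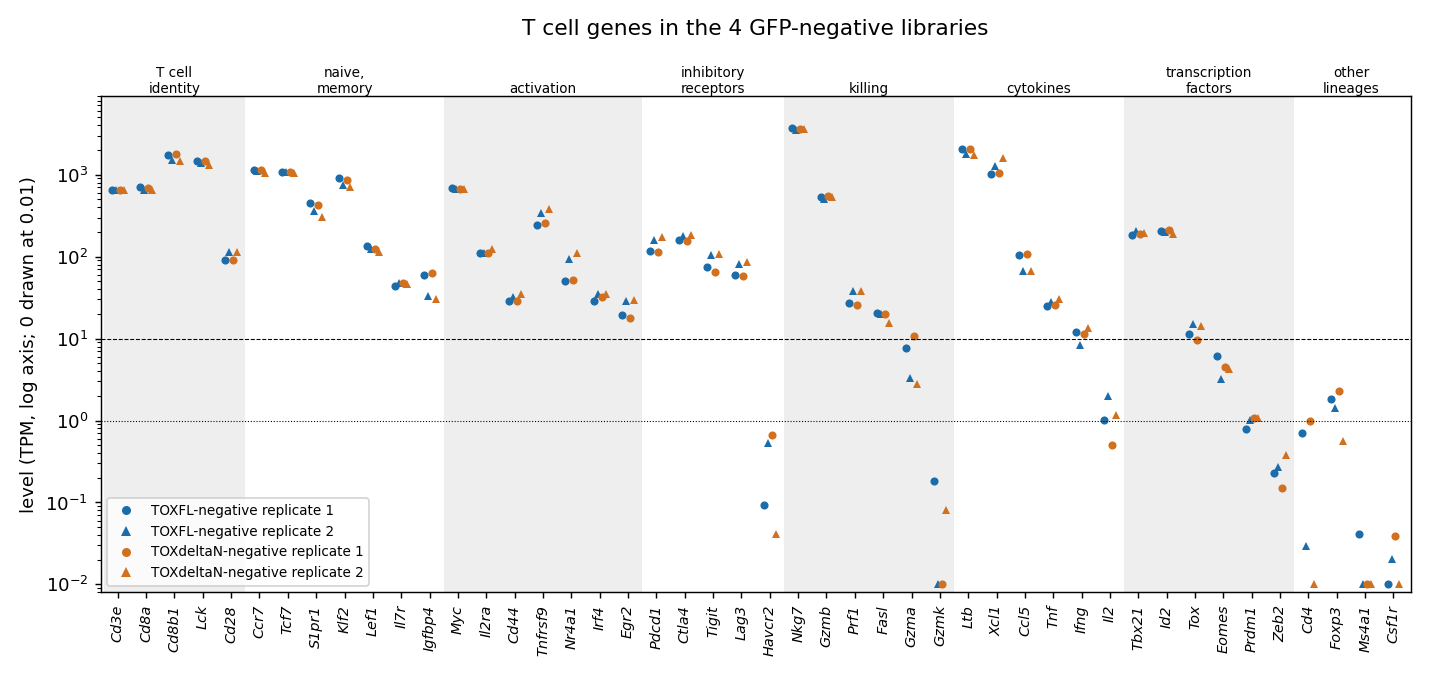
Level in TPM (vertical axis, log scale, 0 drawn at 0.01) of named T cell genes in the 4 GFP-negative libraries, with color for the culture and shape for the replicate number. The dashed line is 10 TPM and the dotted line 1 TPM. Ccr7, Tcf7, Myc, Gzmb and Nkg7 stood above 400 TPM in every library, while Havcr2, Gzmk and Zeb2 lay under 1 TPM in every library.

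Genes of naive and memory cells were abundant on day 5, with 18 of 20 on. Ccr7, the receptor that guides cells into lymph nodes, had 1147, 1099, 1153 and 1045 TPM. Tcf7, the factor of naive and stem-like memory cells, had 1069, 1082, 1067 and 1057 TPM, and the 4 libraries lay within a few percent of each other. Klf2, which drives egress genes, had 901, 755, 862 and 712 TPM, and its target S1pr1, the egress receptor, had 448, 356, 432 and 303. Both were lower in each replicate 2 library than in each replicate 1 library. Dapl1 stood at 362 to 578 TPM, Id3 at 345 to 404 and Bcl2 at 217 to 336, and the IL-7 receptor chain Il7r was on at 44.3 to 48.1 TPM. Bcl6 was low, at 2.07 to 3.89 TPM. Ly6c1 was off while its neighbor Ly6c2 was at 130 to 191 TPM, but the family is near-identical and the split between them is uncertain.

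Activation genes stood beside them, with 21 of 24 on. Myc, which drives growth after activation, had 688, 668, 675 and 667 TPM and rank 200 among all genes. Tnfrsf18 (GITR) was at 631 to 700 TPM, Tnfrsf9 (4-1BB) at 243, 344, 259 and 386, and Il2ra, the inducible IL-2 receptor chain, at 109 to 123. Tnfrsf9 was higher in each replicate 2 library than in each replicate 1 library. The amino acid transporter chains Slc7a5 and Slc3a2 had 142 to 160 and 157 to 168 TPM. Cd44 and Cd69, surface proteins that rise with activation, were on at a lower level, 28.4 to 35.2 and 23.2 to 29 TPM. Cd40lg, a helper T cell ligand, was off, and Nr4a3 and Batf3 were low.

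Of 13 inhibitory receptors, 9 were on. Ctla4 had 161, 178, 154 and 181 TPM, Vsir 161, 148, 159 and 136, and Pdcd1 (PD-1) 117, 160, 114 and 174. Pdcd1, Tigit (73.8, 104, 65.4 and 109 TPM) and Lag3 (60.5, 81.1, 58.3 and 85.9 TPM) were each higher in both replicate 2 libraries. Havcr2 (TIM-3) was the member that was off, at 0.041 to 0.668 TPM, and Cd244a, Entpd1 and Cd200r1 were low.

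The killing genes were split. Besides Nkg7, the granzyme Gzmb was high at 527, 499, 557 and 535 TPM, the granule protease Ctsw was at 855 to 1092 and the proteoglycan Srgn at 349 to 390. Perforin (Prf1) was on at 27.3, 38.6, 25.4 and 38 TPM and Fasl at 15.7 to 20.5. Gzma was low at 7.78, 3.31, 10.6 and 2.77 TPM, and Gzmk was off. Gzmd, Gzme, Gzmg and Gzmn had 0 counts in all 4 libraries and Gzmf reached 0.486 TPM, although these granzymes are near-identical and reads they share can be split by the counting. Gzmc, of the same cluster on chromosome 14, was on at 19.4 to 27.7 TPM. In all, 12 of 20 members were on and 6 off.

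Among NK receptors and terminal effector genes, Klrd1 (CD94) had 731, 890, 731 and 913 TPM, Klrk1 (NKG2D) 136 to 186 and its relative Klrc1 82.8 to 112. Klrg1, the marker of short-lived effector cells, and Fcgr2b had 0 counts in all 4 libraries.

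Of 21 cytokine and chemokine genes, 8 were on. Ltb, the membrane-bound lymphotoxin chain, had 2038, 1784, 2032 and 1748 TPM and Xcl1, a chemokine for cross-presenting dendritic cells, 1026, 1286, 1061 and 1583. These differed by replicate number in opposite directions, Ltb being lower and Xcl1 higher in both replicate 2 libraries. Ccl4 had 246 to 323 TPM, Ccl5 105, 66.1, 108 and 66.4, and Tnf 25.2 to 30.4. Ifng was low at 11.9, 8.37, 11.3 and 13.4 TPM, as was Il2 at 0.497 to 1.98. Il10, Il13, Il17a and Il21 had 0 counts in all 4, and Il4 and Il5 were off.

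The transcription factors of effector cells were also split. Tbx21 (T-bet) had 182, 206, 187 and 194 TPM, Id2 190 to 212, Stat4 276 to 289, Hif1a 250 to 303 and Runx3 134 to 156. Eomes was low at 3.24 to 6.2 TPM, Prdm1 (BLIMP-1) was at 0.782 to 1.08 and Zeb2 was off at 0.148 to 0.38. Of the TOX family, Tox4 was on at 84.9 to 94 TPM, Tox was at 11.3, 15.3, 9.52 and 14.1, and Tox2 and Tox3 were off. In all, 12 of 20 were on.

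Cytokine receptors were largely present, with 17 of 19 on. The common gamma chain Il2rg had 1710 to 1851 TPM, the shared IL-2 and IL-15 receptor chain Il2rb 858 to 985, and Ifngr1 1118 to 1163. Ifngr2, the other chain of the interferon gamma receptor, was low at 7.4 to 8.82 TPM, and Il1rl1 was off. Among chemokine receptors and adhesion molecules, 10 of 22 were on, led by the integrin chain Itgb7 at 1838, 1497, 1809 and 1403 TPM and Selplg, the selectin ligand, at 1266 to 1465. The homing receptors Cxcr3 and Cxcr6 had 174 to 246 and 174 to 192 TPM. Cxcr5, Ccr6, S1pr5, Itga1 and Itga2 were off, and Cx3cr1 was at 0.644 to 1.45 TPM.

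Cell cycle genes were on throughout. All 20 mitosis genes were on, from Ccnb2 (cyclin B2, 447, 515, 475 and 517 TPM) and Cdc20 (426 to 501) down to Cenpf (28.1 to 32.9). All 20 replication genes were on, with the ribonucleotide reductase subunit Rrm2 at 563 to 614 TPM and the helicase subunit Mcm6 at 566 to 596. The glycolysis list was on except for hexokinase 2 (Hk2, 5.74 to 9.12 TPM). It was led by Ldha, lactate dehydrogenase A, with 1905, 2291, 1986 and 2425 TPM and Eno1 with 1562 to 1738. Of the cholesterol synthesis genes, 15 of 16 were on, with Srebf2, their regulator, at 158 to 173 TPM.

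Interferon-linked genes depended on the kind. The GTPase genes Igtp (1399, 1091, 1304 and 1041 TPM) and Ifi47 (652 to 838) and the guanylate-binding protein gene Gbp2 (404 to 486) were high. Isg15 was at 18.7 to 23.4 TPM, and Oasl1 and Oasl2 were off. In all, 13 of 19 were on. The stress and unfolded protein list had 14 of 16 on, led by the chaperone Hspa5 at 634 to 686 TPM, with the cystine transporter Slc7a11 off. Of the p53 and apoptosis list 15 of 16 were on, with the survival gene Mcl1 at 408 to 422 TPM and Cdkn1a (p21) at 18.2 to 30.1. The immediate early and heat shock list was split. Hspa1a, Hspa1b and Fosb, which rise quickly after stress or handling, were off, and Fos was at 7.04 to 10.2 TPM. Of that list 9 of 14 genes were on, led by Hspa8 at 1745 to 1961 TPM. Among them were the immediate early genes Jund (1070 to 1175 TPM), Ier2 (393 to 454), Jun (216 to 288) and Junb (218 to 263).

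The GFP-negative cells of the cultures were then compared, to ask whether they differed with the vector given to the culture. GFP-negative means without detectable GFP. With no vector-free culture, the comparison cannot show an effect of either vector by itself. No gene was called between TOXFL-negative and TOXdeltaN-negative libraries: 0 of 13329 tested genes (0%) had an adjusted p under 0.05 by edgeR's quasi-likelihood test with Benjamini-Hochberg adjustment, and 328 (2.46%) had an unadjusted p under 0.05. DESeq2 called 8 genes (0.06%). The largest values were therefore read as values only. Among genes with a mean of at least 8 CPM, the 5 highest log2 differences were those of Gm4737 (1.42), Gm20696 (1.08), Kcnq1ot1 (0.81), Neat1 (0.73) and Gm42688 (0.68). The 5 lowest were those of Samd1 (-0.97), Irf2bp2 (-0.84), Taf4 (-0.83), Ski (-0.82) and Adnp (-0.74).

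Neat1, the long non-coding RNA that builds paraspeckles, had 107, 71.1, 51.1 and 55.7 CPM. Kcnq1ot1, an imprinted antisense RNA, had 52.4, 22.9, 21.8 and 21 CPM. The first TOXFL-negative library stood high for both, and the second lay close to the TOXdeltaN-negative libraries for Kcnq1ot1. Without strand information Kcnq1ot1 cannot be told apart from the gene it overlaps, and Gm20696 overlaps Foxp1 on the same strand. Irf2bp2, a transcriptional corepressor, had 71.2, 103, 158 and 155 CPM, a log2 difference of -0.84 ± 0.20 (SE) with an edgeR adjusted p of 0.9996. Taf4, a subunit of TFIID, had 21.3, 23, 38.8 and 40 CPM, and Samd1, a chromatin protein that binds unmethylated CpG islands, had 10.4, 16.3, 23.9 and 28.4. For all 3 the cultures did not overlap, and DESeq2 called them. The GC content of the longest transcript was 67.3% in Samd1, 58.7% in Taf4, 55.6% in Ski, 54.6% in Irf2bp2 and 48.1% in Adnp. Among the 5 highest differences it was 59.3% in Gm42688, 52.9% in Gm4737, 47.3% in Neat1, 45.6% in Gm20696 and 40.3% in Kcnq1ot1. The median over genes above 8 CPM was 49.3%. The part of GC content in these values was not tested.

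The remaining DESeq2 calls were Gm4737, a row with the symbol Zfp91 and Gm44502, higher in TOXFL-negative libraries, and Gm49342 and Gm44170, lower. Apart from Gm4737 (13.5, 19.2, 4.86 and 7.42 CPM), none of these reached 8 CPM in any library, and they were named because DESeq2 called them.

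The intervals that follow are per gene, without adjustment for the number of genes, and speak for the spread among these libraries alone. They come from the fit without a replicate term, and genes under 8 CPM are not covered. Over the 9037 genes with a mean of at least 8 CPM, the 95% interval of the culture difference lay within 2-fold in either direction for 8978 (99.3%). Over the 270 state genes at that level it did so for 264 (97.8%), with a median half-width of 0.291 on the log2 scale, and no such gene had a log2 difference beyond 0.369. Ccr7 overlapped between the cultures, at 660 and 643 against 687 and 622 CPM. Gzmb did not, at 220 and 212 CPM with TOXFL against 241 and 231 with TOXdeltaN, and was not called. The libraries of a culture did not overlap those of the other for 2243 genes with TOXFL higher (16.8% of those tested) and 2216 with TOXFL lower (16.6%).

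Read by list, no list held a called gene in this comparison. Of the 13 mitochondrially encoded genes, 11 were lower in both TOXFL-negative libraries than in both TOXdeltaN-negative libraries, with a list median of -0.13 (log2), against a median of 0.00 over all tested genes. Their share of counts was 0.832%, 0.834%, 0.909% and 0.894%. Of the 24 activation genes 5 were lower without overlap (median -0.12), and of the 19 interferon-stimulated genes 4 were higher without overlap (median 0.06). The activation and interferon counts are near the shares over all tested genes, 16.6% lower and 16.8% higher without overlap. The mitochondrial count, 11 of 13, is above that share, though none of these genes was called. The mitochondrial share of a library enters all 13 genes, so the count does not rest on separate observations. Mitosis and replication genes had medians of -0.08 and -0.07. Leaving out the first TOXdeltaN-negative library gave 1 call, and adding the replicate number as a block gave 0. A fit of the 4 GFP-negative libraries alone with that block, with 1 residual degree of freedom, called 363 genes (271 higher and 92 lower with TOXFL).

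The libraries differed more by replicate number than by culture. Of the sum of squares of log2 CPM over the 9037 genes, 50.8% went with the replicate number, 31.2% with the culture and 18% with the remainder, each with 1 degree of freedom. Across genes, the replicate 2 libraries of the cultures had the highest correlation (r = 0.99546 of log2 CPM) and the replicate 1 libraries the next (0.99422), above the libraries within the TOXFL-negative (0.99252) and the TOXdeltaN-negative group (0.99291). TOXFL-negative replicate 2 and TOXdeltaN-negative replicate 1, which share neither culture nor number, stood at 0.99376, also above both pairs within a culture, with a median absolute log2 difference of 0.0872 against 0.0898 for the replicate 1 pair. These values are across genes that all libraries share and describe these libraries only. The genes with the largest standard deviation over the 4 libraries were Pde2a, Lad1, Gm4737, Gm20696, Gm49369, Cd74, Fam220a, Dtx1, Samd1 and Kcnq1ot1. What the replicate number marks is not given in the labels.

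The nuclear receptors Nr4a1 and Nr4a2, the protease inhibitor Serpine2 and Cd74 were higher in replicate 2, and Pde2a and Igfbp4 were lower. With the replicate number as a term, 23 of 13329 genes (0.173%) were called between the GFP-negative libraries, 15 higher in replicate 2 (0.113%) and 8 lower (0.06%), by edgeR's quasi-likelihood test, and 1075 (8.07%) had an unadjusted p under 0.05. DESeq2 called 93 (0.698%). Among the 9 higher genes with at least 8 CPM were Nr4a1 and Nr4a2, which T cell receptor signals induce quickly, Serpine2, the repressor Zbtb32, the transcription factor Myb, Itm2a, Cables1, Cd74 and Lad1. The 4 lower genes at that level were Pde2a, a phosphodiesterase of cyclic nucleotides, the quinone reductase Nqo1, Igfbp4, a binding protein of insulin-like growth factors that naive T cells express, and Art2b, a surface ADP-ribosyltransferase of T cells.

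**Figure D3:**
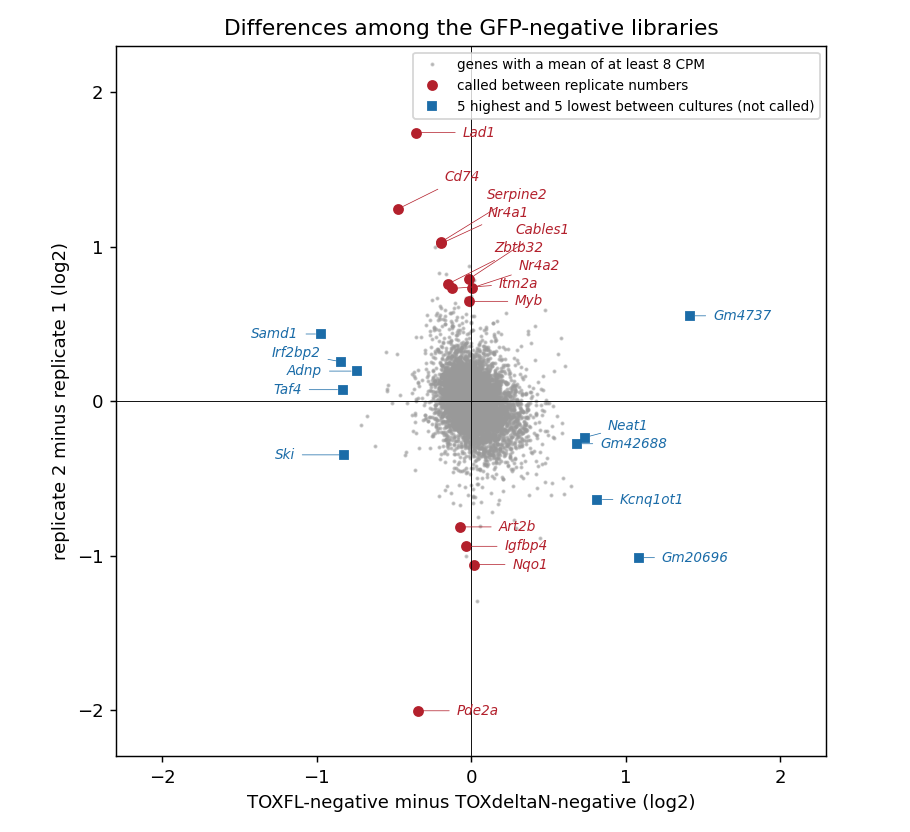
Each dot is a gene with a mean of at least 8 CPM, placed by its log2 difference between cultures (horizontal axis, TOXFL-negative minus TOXdeltaN-negative) and between replicate numbers (vertical axis, replicate 2 minus replicate 1, GFP-negative libraries). Red marks the 13 genes called between replicate numbers, from Lad1 at 1.74 to Pde2a at -2.01, and blue the 5 highest and 5 lowest between cultures, none of them called by edgeR and 4 of them (Gm4737, Samd1, Irf2bp2 and Taf4) called by DESeq2.

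Nr4a1 (chromosome 15, positions 101254269 to 101274795, plus strand, GRCm38) had 51.7, 98.2, 54.2 and 117 CPM. Both replicate 2 libraries were near a doubling of both replicate 1 libraries, a log2 difference of 1.02 ± 0.09 (SE, edgeR adjusted p = 0.00718). Nr4a2 (chromosome 2, positions 57106830 to 57124003, minus strand) had 35.8, 59.7, 35.8 and 59.4 CPM, a difference of 0.73 ± 0.09 (edgeR adjusted p = 0.0165). The promoters of these members, which moved together, are shown beside that of Igfbp4, which moved the other way. Each is the 250 bases before the RefSeq start in GRCm38.p6, written on the gene's strand, and capitals mark each CGTCA or its reverse complement TGACG, the half-site bound by factors of the CREB family.
Nr4a1 promoter, chr15:101266596-101266845, plus strand: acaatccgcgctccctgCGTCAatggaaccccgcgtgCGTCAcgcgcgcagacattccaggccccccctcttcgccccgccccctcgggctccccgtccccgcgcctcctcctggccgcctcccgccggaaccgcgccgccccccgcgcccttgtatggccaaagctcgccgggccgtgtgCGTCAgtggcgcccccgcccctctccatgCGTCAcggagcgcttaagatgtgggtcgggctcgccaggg
Nr4a2 promoter, chr2:57124004-57124253, minus strand: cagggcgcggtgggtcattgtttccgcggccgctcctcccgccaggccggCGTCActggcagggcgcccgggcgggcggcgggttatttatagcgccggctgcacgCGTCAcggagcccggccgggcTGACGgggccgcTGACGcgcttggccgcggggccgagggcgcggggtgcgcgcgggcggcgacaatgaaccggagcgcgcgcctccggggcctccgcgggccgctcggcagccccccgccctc
Igfbp4 promoter, chr11:99040994-99041243, plus strand: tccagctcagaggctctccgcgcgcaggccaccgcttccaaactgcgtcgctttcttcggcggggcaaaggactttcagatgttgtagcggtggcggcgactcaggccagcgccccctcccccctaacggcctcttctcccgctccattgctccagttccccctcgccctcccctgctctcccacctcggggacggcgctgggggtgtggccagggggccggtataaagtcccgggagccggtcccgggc
Nr4a1 and Nr4a2 hold 4 matches each, and none of these overlap. Igfbp4 holds none, and neither does the promoter of Serpine2, which was higher in replicate 2 like Nr4a1 and Nr4a2. Whether matches go with the direction of the difference was not tested. Of 32851 RefSeq promoters of this length, 17.8% hold at least 1 match and 45 (0.137%) hold at least 4. The motif was chosen after these promoters had been read, and a match is a description of letters, not a bound site.

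Serpine2 (chromosome 1, positions 79794197 to 79861180, minus strand) had 31.8, 67.2, 38.1 and 75.3 CPM, a log2 difference of 1.03 ± 0.10 (edgeR adjusted p = 0.00718). Lad1, the gene of ladinin, had 8.95, 28.9, 10.9 and 37.6 CPM, the largest difference upward among genes above 8 CPM at 1.74 ± 0.11 (edgeR adjusted p = 0.000684). Cd74 had 4.92, 11.7, 6.88 and 16.3 CPM (1.25 ± 0.14, adjusted p = 0.00947). Each of these genes was higher in both replicate 2 libraries. Cd74 belongs to the myeloid and dendritic marker list, whose summed level was 17.3, 32.9, 19.3 and 41.4 TPM. Cd74 itself made up 10.1, 23.6, 13.6 and 32.2 TPM of this. Of the 14 markers 1 was on. Among the list's 5 tested members 3 lay above in replicate 2 without overlap and 0 below (median 0.71 on the log2 scale). Over all tested genes 21.7% lay above and 21.4% below. Only Cd74 was called. Also above were Cd68, a macrophage marker, at 4.39, 6.73, 3.62 and 6.39 TPM, and Xcr1, a dendritic cell receptor, at 0.49, 0.909, 0.511 and 0.727 TPM. Itgam, at 1.28, 1.21, 0.86 and 0.844 TPM, and Itgax, at 0.75, 0.35, 0.4 and 0.86, overlapped between the replicate numbers. The list's defining markers Adgre1, Clec9a, S100a8 and S100a9 were at 0, Csf1r reached 0.0394 TPM and H2-Aa 0.236 TPM. The list of CD4, helper and regulatory T cell markers had its lower sums in replicate 2, at 4.57, 2.63, 4.38 and 1.34 TPM. The part of other cells in the replicate difference was not tested.

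Igfbp4 (chromosome 11, positions 99041244 to 99054392, plus strand) had 77.3, 43.6, 83.6 and 40.3 CPM, lower in both replicate 2 libraries, a log2 difference of -0.94 ± 0.10 (edgeR adjusted p = 0.00947). Pde2a (chromosome 7, positions 101421691 to 101512827, plus strand) had 130, 28.6, 157 and 43.9 CPM, the widest spread of any gene above 8 CPM in the 4 libraries, with a difference of -2.01 ± 0.25 (adjusted p = 0.0165). The GFP-positive libraries had 30.2 and 13.2 CPM of Pde2a with TOXFL and 19.8 and 24 with TOXdeltaN, all below both GFP-negative replicate 1 libraries. Nqo1 had 15.9, 8.24, 16.5 and 7.35 CPM and Art2b 42.7, 23, 43.2 and 25.9, so that the replicate numbers did not overlap for either.

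The called genes under 8 CPM lie outside the rule for named genes and were named after their values were seen. Higher in replicate 2 were Cd83, a surface protein of activated lymphocytes (3.84, 10.6, 4.96 and 12.2 CPM), Penk, the enkephalin precursor (1.08, 3.94, 2.02 and 7.89), the peptide transporter Slc15a2 (0.447, 6.62, 0.479 and 5.47), Smoc1 and Xlr3b. Lower were Cdh1, E-cadherin (3.47, 0.528, 4 and 0.302 CPM), Pdlim4 and Tmem176b. Gm43302 had 245 counts in the second TOXdeltaN-negative library and 0 in the other 3, and Gm2026 had 27, 0, 87 and 0 counts, so these calls rest on few libraries with counts.

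The replicate difference had the same sign in the GFP-positive libraries for 22 of the 23 genes, and 18 of them were called there, where 85 of 13329 genes (0.638%) were called. A test of the difference between the GFP-negative and GFP-positive replicate effects called 0 genes (0%) by edgeR. GFP-positive cells were sorted from the same kinds of culture, so they do not stand for an independent source. Nr4a1 had 65.8 and 106 CPM in TOXFL-positive replicates 1 and 2 and 66.1 and 114 in TOXdeltaN-positive. Igfbp4 had 43.2 and 21.7, and 37.7 and 19.1 CPM.

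**Figure D4:**
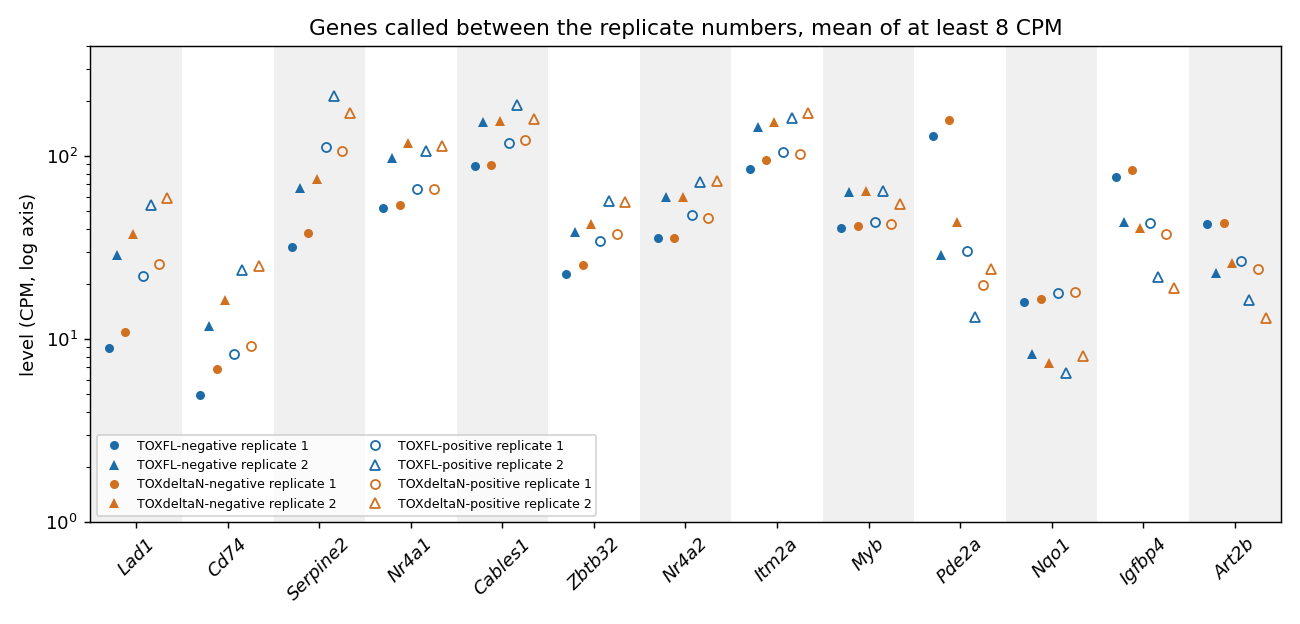
Level in CPM (vertical axis, log scale) of the 13 called genes with a mean of at least 8 CPM, in the 4 GFP-negative (filled) and 4 GFP-positive (open) libraries, with circles for replicate 1 and triangles for replicate 2. In the GFP-negative libraries both triangles lie above both circles for the first 9 genes and below them for the last 4.

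Most list genes moved by less than the test could call, and lists are described by counts without overlap. Over all tested genes, both replicate 2 libraries lay above both replicate 1 libraries for 21.7% and below for 21.4%. Of the 24 activation genes 16 lay above (median 0.24 on the log2 scale, against 0.00 over all tested genes) and 1 below, with Nr4a1 and Nr4a2 called. Egr2, a factor that receptor signals induce, had 19.1, 29.2, 18 and 30.4 CPM (0.68 ± 0.11, edgeR adjusted p = 0.0595), and Tnfrsf9 had an adjusted p of 0.0714. Of the 13 inhibitory receptors 6 lay above and 2 below, and none was called. Pdcd1, at 65.4, 91.6, 66.4 and 101 CPM, had a difference of 0.55 ± 0.09 (edgeR adjusted p = 0.0714). The shift was not particular to activation genes. Of the 14 immediate early and heat shock genes 10 lay above (median 0.15) and 2 below. Of 15 tested stress and unfolded protein genes 10 lay above (median 0.12) and 1 below. No gene of these lists was called.

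Among 17 tested rows of glycolysis genes, 14 lay above in replicate 2 (median 0.19), as did 14 of 20 mitosis genes (0.16) and 12 of 20 replication genes (0.09), with none below among the last 2 lists. None of these was called. Lower without overlap were 12 of 19 interferon-stimulated genes (median -0.21), 12 of 20 chemokine receptor and adhesion genes (-0.31) and 10 of 19 naive and memory genes (-0.09), of which Igfbp4 was called. Cxcr3 had 122, 89.1, 128 and 93.5 CPM and Itgae, the integrin chain CD103, 126, 88, 113 and 72.2, both lower in each replicate 2 library, with edgeR adjusted p of 0.0913 and 0.113. Of the naive and memory genes 7 lay above without overlap.

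The number of replicate calls changed with the library left out, each such fit having 1 residual degree of freedom. The cause was not tested. Leaving out a GFP-negative library, which leaves 1 residual degree of freedom, gave 41 calls without the first and 43 without the second TOXFL-negative library, and 34 and 37 without the first and second TOXdeltaN-negative library, of which 14 to 17 were among the 23. Leaving out a GFP-positive library gave 1108 to 1125. Lad1, Cd74, Serpine2, Nr4a1 and Pde2a were called each time. Nr4a2, Cables1, Zbtb32, Itm2a and Myb were lost without any 1 of the GFP-negative libraries. The other calls lost among the genes above 8 CPM fell on Nqo1, Igfbp4 or Art2b, which were lower in replicate 2.

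Set against the GFP-positive cells, the GFP-negative cells had lower levels of cell cycle genes. Over both cultures, 323 of 13329 genes (2.42%) were called by edgeR, 144 higher in GFP-negative cells (1.08%) and 179 lower (1.34%), and 2920 (21.9%) had an unadjusted p under 0.05. DESeq2 called 1058 (7.94%). Of the 20 mitosis genes 12 were called, all lower (list median -0.44, against 0.00 over all tested genes), and 16 had all 4 GFP-negative libraries below all 4 GFP-positive libraries, against 8.22% of tested genes. Cdk1 (-0.59 ± 0.07, SE) and Ube2c (-0.60 ± 0.08) were among them. Of the 20 replication genes 6 were called, all lower, among them Rrm2 (-0.43 ± 0.06), with a list median of -0.28 and 14 without overlap.

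Ccr7 and Ly6c2, genes of naive and memory cells, were higher in the GFP-negative cells. Of the 19 tested genes of that list 3 were called, these among them, and 11 had all GFP-negative libraries above all GFP-positive libraries, against 8.08% of tested genes. Ccr7 had 660, 643, 687 and 622 CPM in the GFP-negative libraries against 524 to 554 in the GFP-positive (0.27 ± 0.06, edgeR adjusted p = 0.0482). The interferon-linked Gbp2 and Gbp10 and the receptors Ifngr1 and Il18r1 were called higher as well. Cdkn1a, the p53 target that restrains the cycle, was lower, at 18.8, 26.5, 20.9 and 32.2 CPM against 46.2 to 78.4 (-1.26 ± 0.19, edgeR adjusted p = 0.0216). Its list, p53 target and apoptosis genes, went both ways. Of 16 genes 3 were called higher and 2 lower, and without overlap 4 lay above and 5 below. Besides Tox (-1.89), other genes lower in GFP-negative cells by the rule for named genes were Serpine2, Ier5l, Tubb6, Phlda3, Psrc1, Gm4737, Prr5 and Exosc6. Higher were Vipr1, a receptor of vasoactive intestinal peptide (1.42), Tatdn2, Syt6, Taf15, Nacc2, Slc28a2b (1.01), St6gal1, Stk11 and Zfp831.

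The cultures did not share all of these differences. Taf15 had 13.1 and 10.9 CPM in TOXFL-negative against 3.52 and 2.1 in TOXFL-positive libraries, but 10.5 and 8.6 in TOXdeltaN-negative against 10.4 and 8.43 in TOXdeltaN-positive libraries. Stk11 had 54.3 and 64.3 against 28.2 and 15.3 CPM with TOXFL, and 62.2 and 59.2 against 54.6 and 44.7 with TOXdeltaN. Gm4737 overlapped with TOXFL, at 13.5 and 19.2 against 14.3 and 14.7 CPM, and was lower in GFP-negative libraries with TOXdeltaN, at 4.86 and 7.42 against 26.3 and 18 CPM. Whether the differences of these 3 genes were unequal between cultures was not tested.

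Of the 13 mitochondrially encoded genes none was called, but 8 had all GFP-negative libraries above all GFP-positive libraries (median 0.35). The share over all tested genes was 8.08%, but the mitochondrially encoded genes are not separate observations. The part of the mitochondrial share in the other values was not tested. The number of calls moved with the libraries. It was 5, 72, 8 and 7 without the first or second TOXFL-negative or the first or second TOXdeltaN-negative library, 186 and 10 without the first or second TOXFL-positive library and 2504 without the first TOXdeltaN-positive library. It was 1697 with the replicate number as a block, and 12 called mitosis genes became 18 with the block and 0 without the first TOXFL-negative, either TOXdeltaN-negative or the second TOXFL-positive library. With the block, 14 of 20 replication genes were called lower, and 14 of 19 naive and memory genes and 12 of 19 interferon-stimulated genes higher. Of all 13329 tested genes, the block gave 892 called higher and 805 lower. Without the same 4 libraries 0 replication genes and 1 naive or memory gene were called.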

How the data were processed

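RNA of 8 libraries was sequenced, each made from 8 ng of total RNA with SMART-Seq v4 and Nextera XT kits per the labels' protocols, which do not mark strand. The tools named in the submitters' processing notes are bcl2fastq 2.20, cutadapt, STAR 2.6.1 and RSEM 1.2.28, with GRCm38 as the build. What the authors deposited is a table of estimated counts by gene, from RSEM, in whole numbers and not normalized. The annotation release and the step that gave whole numbers are not given in the sources used here. The table had 31907 rows, of which 92 ERCC rows held 0 counts and were left out.

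Identifiers were matched to GENCODE M21 (31173 of 31815 with their version, 31748 without it), which gave positions and merged exon lengths, and 67 had no length. Promoters were taken from RefSeq. Where a symbol stood on more than 1 identifier, as for Aldoa and Ddit3, the row with more counts gave the TPM. Genes of the lists that are not rows of the table, such as Trac and Ighm, were not analysed here, and values of a few list members are not reported here.

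In R 4.3.3, edgeR 4.0.16 kept 13329 genes (filterByExpr by group), scaled libraries by TMM (0.9894 to 1.02) and ran quasi-likelihood F-tests with Benjamini-Hochberg adjustment over all of them, at 0.05, with all 8 libraries in the fit so that the groups shared an estimate of spread. A gene is called when it passes. The 3 comparisons were the GFP-negative groups, the replicate numbers (group means plus a replicate term for GFP-negative and GFP-positive libraries, 2 residual degrees of freedom) and GFP-negative against GFP-positive cells (group means, 4). The fits were run on simulated data with known changes, as a check of the direction and size of the estimates. Those data held no replicate effect shared by the groups, so they do not speak for the numbers of calls.

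Same-numbered libraries deviated together from their group means, with correlations across genes of 0.168 to 0.241 in all 6 pairs of groups. The labels state no pairing, so it rests on these correlations alone, and any axis of variation shared by the libraries could give them.

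Named genes are the 20 most abundant, list members (highest, lowest, defining), up to 10 called genes per direction with at least 8 CPM ranked by log2 change, the 5 highest and 5 lowest where fewer than 10 were called, and the 10 most variable. The libraries, lists and tests were chosen with earlier results of these data known. Alternatives were another scaling (RLE), no filter, DESeq2 1.42.0, a replicate block, fits of the GFP-negative libraries alone, other length measures and leaving out each library.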

Additional observations from a re-analysis of the deposited data

How the results depend on the processing

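With RLE factors the counts of calls were 0, 23 and 323 for the cultures, the replicate numbers and the GFP comparison, and the median log2 difference of all genes moved by 0.00462 or less. Without the filter on low counts they were 37, 207 and 1665. With DESeq2 they were 8, 93 and 1058, of which 22 were among the 23 replicate calls and 320 among the 323 GFP calls. With the replicate number as a block, the cultures had 0 calls (546 at an unadjusted p under 0.05) and the GFP comparison 1697, which included all 323. In fits of the 4 GFP-negative libraries alone with the replicate block, which have 1 residual degree of freedom, there were 363 calls between cultures and 1151 between replicate numbers. Without the block the 4 libraries gave 0 between cultures. The causes of these shifts were not tested. Leaving out each library gave 0 to 1 calls between cultures, 34 to 1125 between replicate numbers and 5 to 2504 in the GFP comparison, a library left alone in its group being assumed to vary like the others. Of the values of single named genes with a library left out, 27 of 104 in the replicate comparison and 88 of 160 in the GFP comparison lost the call, and none changed direction in any setting. Of genes named between cultures, 22 of 60 values in other settings passed the threshold. State genes on numbered 260 to 264 and off 38 to 40 under other lengths or with a library left out.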
